A study of Mus musculus with 9 samples.

Results

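The genes that build the mitotic spindle, hold chromosomes to it and cut the daughter cells apart were followed through 10 days of pneumosphere culture. The set holds 48 mouse genes, listed by name among the 27179 gene identifiers of the count table, and covers the spindle checkpoint, the kinetochore, the mitotic kinesins and cytokinesis, with the Aurora kinases and their passenger subunits left out. All 48 were found in the table and all 48 passed the filter on low counts, as did 14940 genes in all. Pneumospheres are floating spheres grown from dissociated embryonic lung. The lungs came from C57/B6 mice at embryonic day 11.5, with no allele or drug named in the labels. After a short time on plastic, where mesenchymal cells attach and are left behind, the cells in suspension were kept in medium with 20 ng/ml bFGF, 10 ng/ml EGF and heparin on low attachment plates, at 10% CO2 and 5% O2. All 3 groups shared this medium. Spheres were split on days 3 and 7, and RNA was taken on days 3, 7 and 10, with 3 libraries for each day. Day of culture and passage number therefore cannot be told apart. Whether the 3 libraries of 1 day stem from different cultures is not in the labels, so p-values measure the spread between libraries, which may be technical.

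Mitotic genes are switched on late in the cell cycle. Kinetochores form on CENP-A nucleosomes of the centromere and grip spindle microtubules, BUB and MAD proteins hold back the anaphase-promoting complex until every chromosome is attached, and separase then cuts cohesin so that kinesins and the central spindle can divide the cell. Many of these genes carry a cell cycle genes homology region, or CHR, close to the transcription start. The CHR is bound by the MuvB core, which forms the repressive DREAM complex in resting cells and works with B-MYB and FOXM1 in dividing cells. The CCAAT box, bound by NF-Y, often lies just upstream.

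Most promoters of the set held these letters, which the choice of genes did not use. RefSeq promoters on GRCm38.p6, each reaching from 250 bases before to 50 bases after the transcription start, were found for 43 of the 48 genes, with 48 promoters between them. Ccna2, Tpx2, Kif20a, Spc24 and Zwilch had no entry. The CHR was searched as TTTGAA or TTCGAA and the CCAAT box as CCAAT, both on either strand; a match of one can share at most 1 base with a match of the other. A CHR match lay in 35 of the 48 promoters (72.92%), against 6316 of all 32851 promoters (19.23%). Counts are per promoter, and the overlapping windows of Bub3, Ect2 and Prc1 repeat the same sites. By gene, 32 of the 43 held a match. A match starting within 50 bases of the transcription start was found in 31 promoters of the set (64.58%) and in 1743 of all promoters (5.31%). CCAAT was present in 37 (77.08%) against 12289 (37.41%), and both motifs in 29 (60.42%) against 2472 (7.52%). Below are the last 120 bases before the start for the 8 genes whose CHR match lies wholly upstream and nearest to it, 9 to 27 bases away, and for Pttg1, which holds neither motif there and was added after its values were seen. The only window of Pttg1 lies inside the gene's span, chr11:43420244-43427463. Sequence before the outer end of Pttg1 was therefore not searched, and its lack of a match covers that inner start alone. Windows of Kif2c, Cenpm and Ect2 lie inside their genes as well. So do the Cenpk windows chr13:104228716-104229015 and chr13:104229138-104229437, while its window chr13:104228361-104228660 spans the outer end. Capitals mark CHR and CCAAT matches, read on either strand.
Cenpn: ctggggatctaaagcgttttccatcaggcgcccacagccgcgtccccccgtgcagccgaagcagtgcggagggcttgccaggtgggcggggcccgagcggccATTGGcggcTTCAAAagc
Cdk1: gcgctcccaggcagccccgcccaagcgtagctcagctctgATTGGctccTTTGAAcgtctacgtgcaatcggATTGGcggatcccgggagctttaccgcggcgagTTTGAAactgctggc
Kif22: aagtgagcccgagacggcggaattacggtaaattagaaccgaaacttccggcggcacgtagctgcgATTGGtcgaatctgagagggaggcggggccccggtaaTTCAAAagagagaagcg
Cdc20: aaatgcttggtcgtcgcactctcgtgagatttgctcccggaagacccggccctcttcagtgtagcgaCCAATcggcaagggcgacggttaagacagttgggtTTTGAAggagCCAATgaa
Kif11: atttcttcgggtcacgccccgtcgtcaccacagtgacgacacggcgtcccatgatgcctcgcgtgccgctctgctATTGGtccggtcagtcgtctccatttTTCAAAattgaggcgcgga
Kif15: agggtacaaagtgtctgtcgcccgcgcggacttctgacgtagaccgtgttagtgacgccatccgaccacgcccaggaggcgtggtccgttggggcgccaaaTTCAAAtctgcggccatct
Top2a: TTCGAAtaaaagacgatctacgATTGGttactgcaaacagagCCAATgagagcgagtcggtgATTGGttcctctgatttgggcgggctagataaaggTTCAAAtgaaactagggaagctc
Espl1: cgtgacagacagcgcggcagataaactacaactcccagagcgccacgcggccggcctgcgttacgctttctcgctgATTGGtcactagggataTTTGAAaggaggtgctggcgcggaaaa
Pttg1: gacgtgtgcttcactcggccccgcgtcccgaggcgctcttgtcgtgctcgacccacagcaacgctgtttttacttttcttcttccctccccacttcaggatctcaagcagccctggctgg
On GRCm38.p6 the stretches are Cenpn chr8:116921620-116921739 (plus strand), Cdk1 chr10:69352913-69353032 (minus strand), Kif22 chr7:127042421-127042540 (minus strand), Cdc20 chr4:118437344-118437463 (minus strand), Kif11 chr19:37376262-37376381 (plus strand), Kif15 chr9:122950961-122951080 (plus strand), Top2a chr11:99024190-99024309 (minus strand), Espl1 chr15:102296173-102296292 (plus strand) and Pttg1 chr11:43425982-43426101 (minus strand), each written 5′ to 3′ on the strand of its gene. In Cdk1 the pair of CHR matches alternates with the pair of CCAAT matches, and in Cdc20 one CCAAT match lies between the CHR and the start. Counted in bins of 25 bases, CHR matches began in the first 25 bases after the start in 31.25% of the set's promoters against 1.43% of all promoters, and in the last 25 bases before it in 16.67% against 1.46%. A match describes letters in the window and is not a tested binding site. Of the 32 genes with a match, edgeR called 31 lower on day 10 than on day 3 at an adjusted p under 0.05. Their median log2 change was -1.45. Of the 11 without a match, 10 were called lower, with a median of -1.16. Over all genes tested 27.2% were called lower. The difference between the 2 medians was not tested. The genes without a match were Ccnb1, Cenpe, Cenph, Cenpi, Cenpk, Kif18a, Mad2l1, Nuf2, Nusap1, Pttg1 and Zwint.

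**Figure D1:**
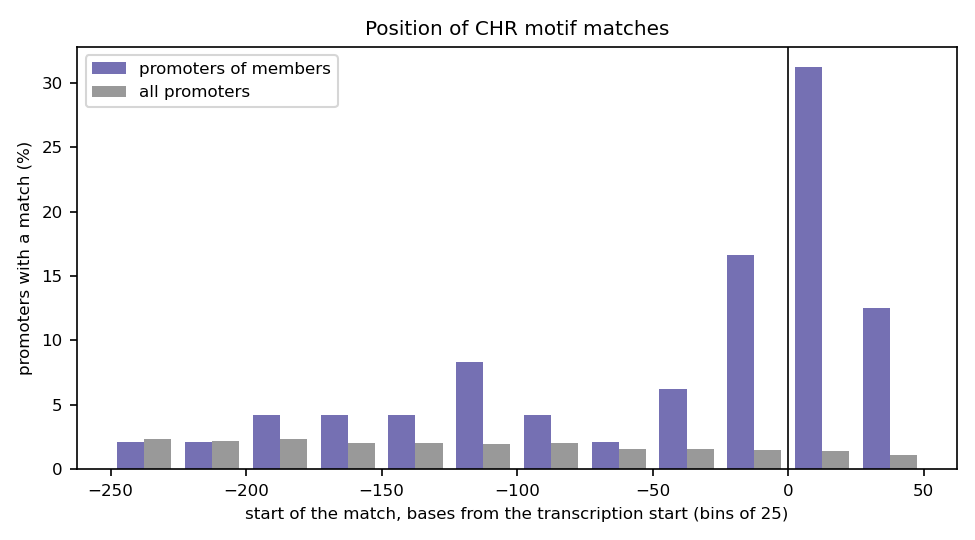
Share of promoters (y axis, percent) in which a CHR match begins in each bin of 25 bases (x axis, bases from the transcription start), for the 48 promoters of the set in purple and all 32851 promoters in grey. The purple bars are tallest around the start, 31.25% in the first 25 bases after it against 1.43% of all promoters.

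The libraries held 20716878 to 30466712 counts, and 3 counts corresponded to 0.0985 to 0.145 CPM, the count of a gene scaled to a library of 1000000. One gene identifier with no name in the reference took 6.79% of the counts of day 3 replicate 2 and at most 0.515% elsewhere. The 10 markers of lung epithelium summed to at most 1.94 CPM in any library, and Nkx2-1, Foxa1 and Shh were at 0 counts in all 9, while the 10 mesenchymal markers summed to 14597 to 16360 CPM on day 3 and 42132 to 47995 on day 10. Erythroid markers (12 of 13 in the table) summed to 1073 to 1274 CPM on day 3, 12.1 to 17.6 on day 7 and 6.85 to 21.4 on day 10, with Hba-a1 at 0 counts in all 6 later libraries. The 10 neural markers summed to 143 to 190 CPM on day 3, 19.2 to 27.2 on day 7 and 13.4 to 15.9 on day 10. Endothelial markers summed to 179 to 215, 246 to 339 and 126 to 139 CPM, mesothelial markers to 68.9 to 89.8, 37.5 to 40.7 and 18.0 to 28.6, and leukocyte markers to 5.76 to 8.07, 3.26 to 5.82 and 2.44 to 5.31. Sums are led by the most abundant markers and hide members that went the other way. Between days 3 and 10, edgeR called 7 of 10 mesenchymal markers higher and 3 lower, at an adjusted p under 0.05. It called 8 of 10 tested erythroid markers lower and 1 higher, and 9 of 10 neural markers lower and 1 higher. Of all genes tested, 27.2% were called lower and 29.5% higher. The part of these other cells in the results below was not tested. From day 7 to day 10 the erythroid and leukocyte sums overlapped, and the neural, endothelial and mesothelial sums were lower without overlap.

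Between days 3 and 10 nearly all of the mitotic genes fell. By edgeR's quasi-likelihood test with Benjamini-Hochberg adjustment over all 14940 genes, called at an adjusted p under 0.05, 46 of 48 were lower and 0 higher, where 27.2% of all genes tested were called lower and 29.5% higher. No gene of the set was higher at an unadjusted p under 0.05 either, and DESeq2 called 0 higher. The median log2 change of the set was -1.37, against 0.00 over all genes, and values ran from -1.77 in Bub1 to 0.31 in Pttg1. On day 10 the median gene retained 38.9% of its day 3 level. Under 35% was left in 13 genes, 35 to 50% in 27, 50 to 100% in 7, and Pttg1 alone stood above its day 3 level. The genes not called were Cenpm and Pttg1. All 3 day 10 libraries lay below all 3 day 3 libraries in 47 genes, where 31.9% of all genes did so; the exception was Pttg1. Summed over the set, normalised CPM was 5796, 5724 and 5733 in the day 3 libraries, 3351, 4600 and 4303 on day 7, and 2831, 2582 and 1321 on day 10. The 3 days did not overlap, day 3 was tight, and the lowest library of the series was day 10 replicate 3. In whole-culture RNA, fewer dividing cells and less of each transcript per cell cannot be told apart. Without day 10 replicate 3 the count stayed at 46 lower and the median was -1.07; without that library and day 3 replicate 2 it was 46 and -1.05.

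**Figure D2:**
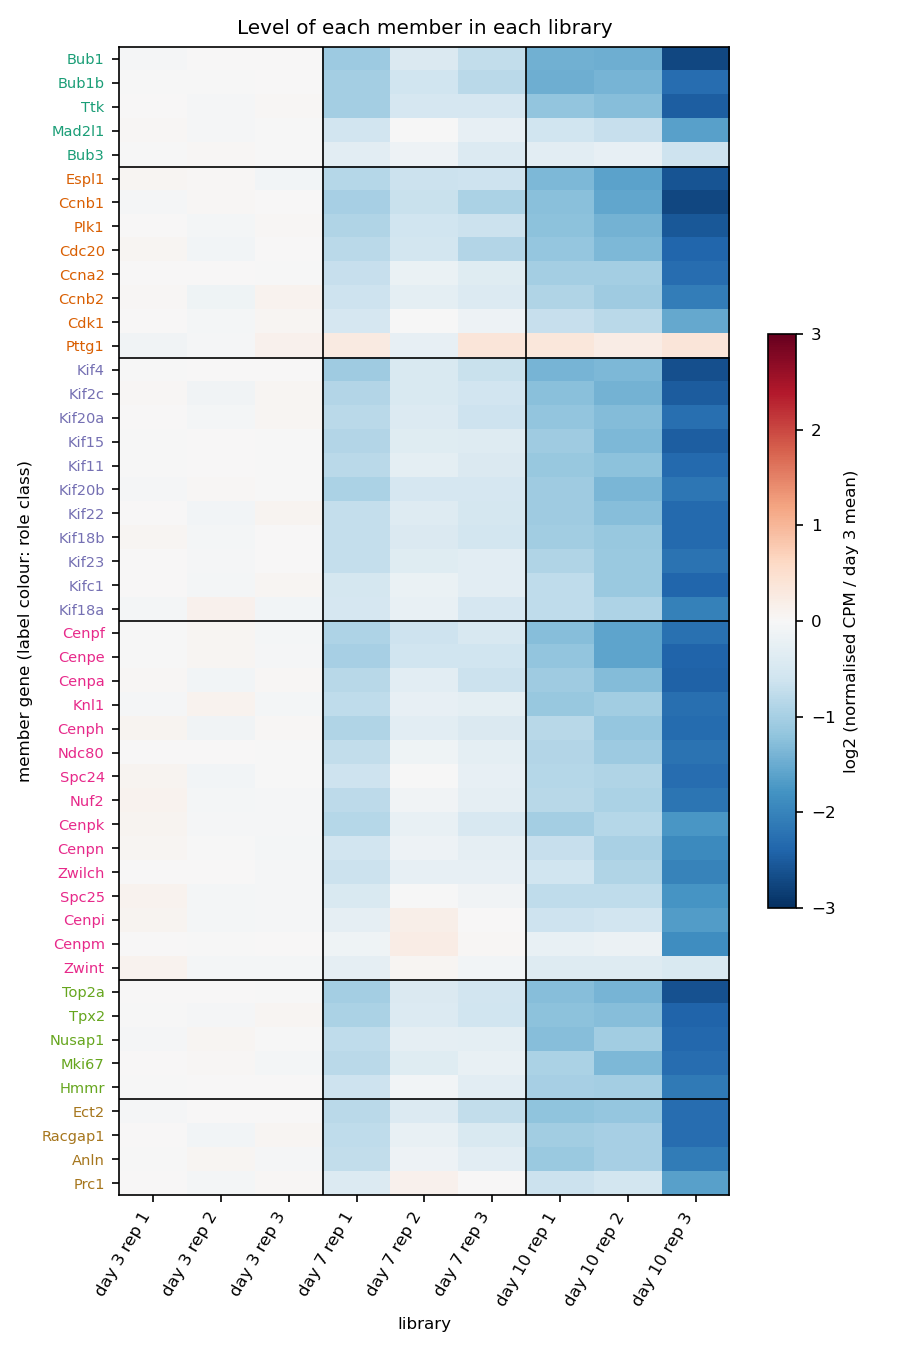
Level of each of the 48 genes (rows, label colour by role class, most lowered gene of each class on top) in each of the 9 libraries (columns), as log2 of normalised CPM over the day 3 mean. Blue deepens from day 3 to day 10 in 47 rows and is deepest in day 10 replicate 3, while the Pttg1 row turns pale red.

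Among the 5 spindle checkpoint genes all 5 fell, with a median log2 change of -1.55. Bub1 (Entrez 12235, chr2:127800197-127831859), the kinase that recruits checkpoint proteins to kinetochores, measured 91.6, 94.8 and 93.9 CPM on day 3, 44.15, 68.9 and 56.3 on day 7 and 34.6, 33.6 and 14.1 on day 10. Its 3 days did not overlap, and day 10 replicate 3 had less than any other library. The log2 change of day 10 against day 3 was -1.77 (SE 0.295, adjusted p = 0.000726, edgeR), the most negative of the set. Bub1b, which encodes the checkpoint effector BubR1, went from 171 ± 2.35 to 54.4 ± 16.6 CPM (SD, n = 3 each day), a log2 change of -1.66 (SE 0.207, edgeR adjusted p = 0.000127). Ttk, the checkpoint kinase Mps1, fell by 1.55 on the log2 scale, and Mad2l1, whose product binds and inhibits Cdc20, fell by 0.91. Bub3 (Entrez 12237, chr7:131560367-131571895), the adaptor that carries Bub1 and BubR1 to the kinetochore, had 142.6, 145.4 and 140.7 CPM on day 3, 114.5, 128 and 108.4 on day 7 and 114.8, 119.7 and 93.3 on day 10. All 6 later libraries were below all 3 of day 3, but days 7 and 10 overlapped. Bub3 thus fell least of the class, with a log2 change of -0.39 (SE 0.098, edgeR adjusted p = 0.00698), with 76.4% of its day 3 level left.

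Of the 8 mitotic kinases, cyclins and anaphase genes, 7 fell, and the class median was -1.44. Espl1 (Entrez 105988, chr15:102296254-102324357), the separase that cleaves cohesin, had 92.6, 90.6 and 84.2 CPM on day 3, 49.1, 57.4 and 58.3 on day 7 and 35.1, 29.1 and 14.8 on day 10. The days did not overlap, and the log2 change was -1.76 (SE 0.251, edgeR adjusted p = 0.000282). Ccnb1 (Entrez 268697, chr13:100778739-100786486), cyclin B1, which activates Cdk1 for entry into mitosis, went from 55.1, 57.5 and 57.0 CPM through 28.5, 35.7 and 29.35 to 23.6, 19.1 and 8.54. Here too every later day lay below the one before. The log2 change was -1.74 (SE 0.290, edgeR adjusted p = 0.000741), although 51.9% of the Ccnb1 transcript is matched at 95% identity or more by the processed pseudogene Gm12856, so its counts are uncertain. Cdk1 (Entrez 12534, chr10:69335146-69352912), its kinase partner, started higher and kept more of its level: 182, 174 and 189 CPM on day 3, 129, 179.8 and 162 on day 7 and 112, 104 and 63.1 on day 10. Days 3 and 7 overlapped and day 10 lay below both. Cdk1 had a log2 change of -0.97 (SE 0.196, edgeR adjusted p = 0.0023). Plk1, a kinase of centrosome maturation and mitotic exit, fell by 1.63, Cdc20, the activator of the anaphase-promoting complex, by 1.54, Ccna2 (cyclin A2) by 1.33 and Ccnb2 (cyclin B2) by 1.26.

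The eighth gene of this class is Pttg1 (Entrez 30939, chr11:43420244-43427463). It encodes securin, which holds separase inactive until anaphase. Its libraries measured 9.345, 9.90 and 11.15 CPM on day 3, 12.3, 8.60 and 12.96 on day 7 and 12.75, 11.8 and 13.1 on day 10. All 3 day 10 libraries were above all 3 of day 3, with day 7 spanning both, and day 10 replicate 3, the lowest library of its day for 47 of the 48 genes, was the highest for Pttg1. The log2 change of day 10 against day 3 was 0.31 (SE 0.157) and did not pass the test (edgeR adjusted p = 0.119). The range of the adjusted p over the other settings was 0.0461 to 0.326, and it passed only without day 7 replicate 2.

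**Figure D3:**
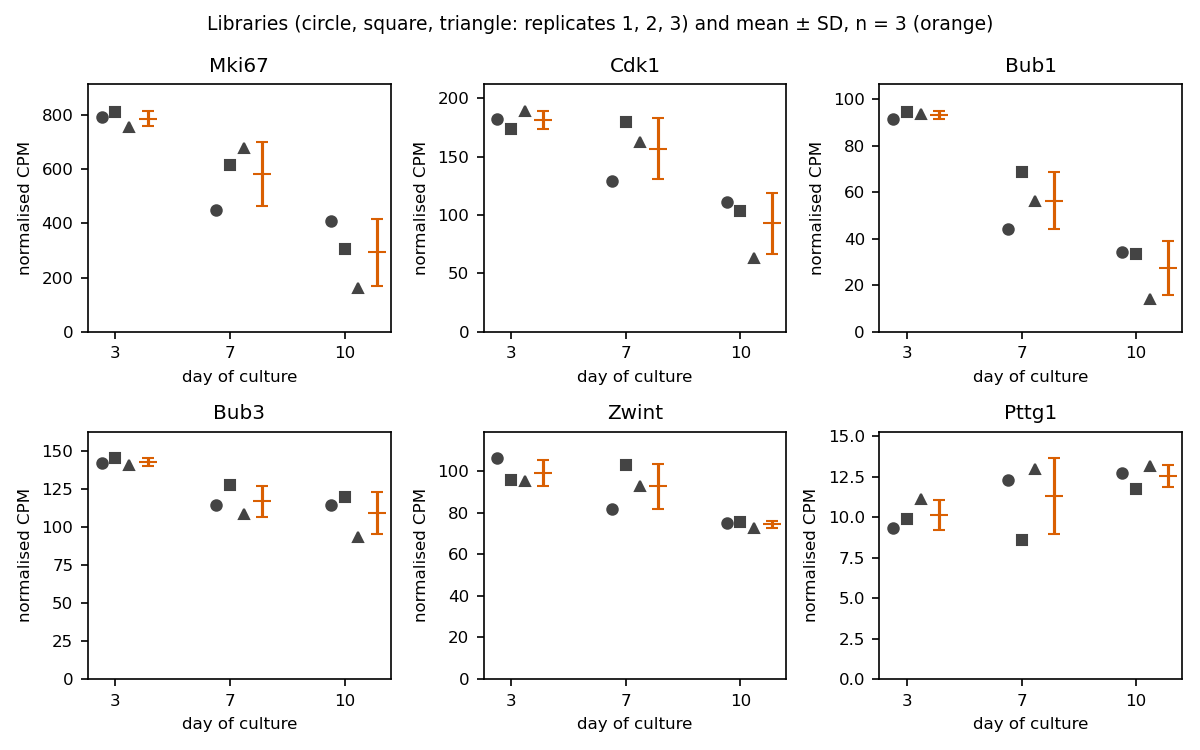
Normalised CPM (y axis, linear from 0) of 6 genes in the libraries of days 3, 7 and 10 (x axis; circle, square and triangle are replicates 1, 2 and 3), with the mean and SD of 3 libraries in orange. Mki67, Cdk1 and Bub1 drop on day 10, Bub3 and Zwint retain over 75% of their day 3 level, and Pttg1 lies at 11.8 to 13.1 CPM on day 10.

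All 11 mitotic kinesins fell, with log2 changes from -1.69 to -1.14 and a median of -1.47. Kif4 (Entrez 16571, chrX:100626065-100727271), a chromosome-bound motor that also shapes the central spindle, had 101, 103 and 102 CPM on day 3, 49.05, 74.4 and 64.0 on day 7 and 38.7, 39.99 and 16.3 on day 10. No library of a later day reached the range of an earlier one, and the log2 change was -1.69 (SE 0.292, edgeR adjusted p = 0.000892). Kif18a (Entrez 228421, chr2:109280738-109341749), which damps the movement of chromosomes at the metaphase plate, measured 23.9, 27.2 and 23.5 CPM, then 17.6, 21.4 and 17.6, then 14.8, 13.1 and 6.14. Its order over the days was the same, with a smaller log2 change of -1.14 (SE 0.265, adjusted p = 0.00488, edgeR). The other motors included Kif11, the bipolar motor Eg5 that pushes the spindle poles apart, which went from 218 ± 2.38 to 78.4 ± 30.4 CPM, and Kif15, which backs it up, from 89.6 ± 1.07 to 31.5 ± 13.8 CPM. Kif2c, a microtubule depolymerase at centromeres, fell by 1.63, Kif20a, a motor of the central spindle, by 1.51, Kif23, the kinesin subunit of centralspindlin, by 1.30, and Kif22, which pushes chromosome arms outward, by 1.47 on the log2 scale. Kif20b and Kif18b fell by 1.47 and 1.40. Kifc1, a minus-end motor that bundles microtubules at the poles, fell by 1.27, but 97.5% of its transcript is matched at 95% identity or more by Kifc5b, which fell from 19.2 to 8.41 CPM, so reads of this pair are uncertain. Exons of Kif20a overlap those of Cdc23 on the other strand over 31.8% of their length, and exons of Kif4 those of Pdzd11 over 15.1%. The strand setting of the counting is not given in the sources used here.

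Of the 15 centromere and kinetochore genes 14 fell, with a median of -1.21. Cenpf (Entrez 108000, chr1:189640606-189688107), a large coiled-coil protein of the outer kinetochore, had 156, 165 and 151.5 CPM on day 3, 83.4, 102 and 113 on day 7 and 65.4, 52.3 and 33.2 on day 10. The 3 days did not overlap, and the log2 change was -1.65 (SE 0.213, edgeR adjusted p = 0.000154). Cenpe, the kinesin of the kinetochore that carries chromosomes to the metaphase plate, fell by 1.65, and Cenpa, the histone H3 variant that marks centromeres, by 1.49. The 4 subunits of the NDC80 complex, which grips microtubules, fell together: Ndc80 by 1.29, Spc24 by 1.23, Nuf2 by 1.21 and Spc25 by 1.02 on the log2 scale. Knl1, the scaffold on which Bub1 and Bub3 dock, fell by 1.40. Among the inner kinetochore subunits that sit on CENP-A chromatin, Cenph fell by 1.31, Cenpk by 1.16, Cenpn by 1.11 and Cenpi by 0.88. Zwilch, part of the complex that brings dynein to kinetochores, fell by 1.06. Cenpm, another inner subunit, measured 14.8, 14.6 and 14.8 CPM on day 3, 13.6, 17.1 and 15.1 on day 7 and 12.6, 13.01 and 4.02 on day 10. Days 3 and 7 overlapped, and day 10 replicate 3 was far below the other 2 libraries of its day. The log2 change was -0.59 (SE 0.345) and did not pass the test (edgeR adjusted p = 0.173), and without that library it was -0.20. Zwint (Entrez 52696, chr10:72654846-72674964), which links Knl1 to the dynein-recruiting complex, had 106, 95.5 and 95.2 CPM on day 3, 81.8, 103 and 92.8 on day 7 and 75.2, 75.25 and 72.5 on day 10. Days 3 and 7 overlapped, and the day 10 libraries, replicate 3 included, had a coefficient of variation of 2.09%. Zwint had a log2 change of -0.41 (SE 0.088, edgeR adjusted p = 0.00265) and had 75.1% of its day 3 level left.

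The 5 genes of chromosome structure and spindle assembly all fell, with a median of -1.46. Top2a (Entrez 21973, chr11:98992947-99024199), the topoisomerase that untangles sister chromatids, had 668, 663 and 649.7 CPM on day 3, 324, 488 and 447 on day 7 and 271, 252 and 108 on day 10. The days were fully separate, and the log2 change was -1.65 (SE 0.299, edgeR adjusted p = 0.00121). Mki67 (Entrez 17345, chr7:135689784-135716450), the proliferation antigen that coats mitotic chromosomes, measured 792, 809 and 753 CPM, then 449.9, 614 and 677, then 409.5, 306 and 162. Day 10 replicate 1 came close to day 7 replicate 1 without overlap, and the log2 change was -1.42 (SE 0.286, adjusted p = 0.00218, edgeR). Hmmr (Entrez 15366, chr11:40701388-40733464), which helps to organise spindle poles, had 91.3, 91.5 and 91.6 CPM on day 3, 59.9, 86.9 and 73.8 on day 7 and 45.8, 45.2 and 21.1 on day 10. It fell least of this class, by 1.29 (SE 0.258, adjusted p = 0.00207, edgeR). Tpx2, which activates Aurora A on spindle microtubules, fell by 1.55, and Nusap1, which bundles microtubules near chromatin, by 1.46.

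The 4 genes of the central spindle and cytokinesis fell as well, with a median of -1.33. Ect2 (Entrez 13605, chr3:27097222-27154253), the exchange factor that activates RhoA at the cleavage site, had 61.4, 63.9 and 63.6 CPM on day 3, 35.9, 47.3 and 37.5 on day 7 and 27.1, 28.1 and 12.9 on day 10. Its days did not overlap, and the log2 change was -1.48 (SE 0.248, edgeR adjusted p = 0.000777). Racgap1, the second subunit of centralspindlin, and Anln, the scaffold anillin of the contractile ring, fell by 1.34 and 1.33. Prc1 (Entrez 233406, chr7:80294445-80316259), which cross-links the microtubules of the central spindle, measured 115, 109 and 117 CPM on day 3, 85.3, 124.5 and 114 on day 7 and 73.05, 77.65 and 36.6 on day 10. Days 3 and 7 overlapped and day 10 lay below both. Prc1 fell by 0.86 (SE 0.248, adjusted p = 0.0141, edgeR), with 21.8% of its exon length shared with Rccd1 on the other strand.

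**Figure D4:**
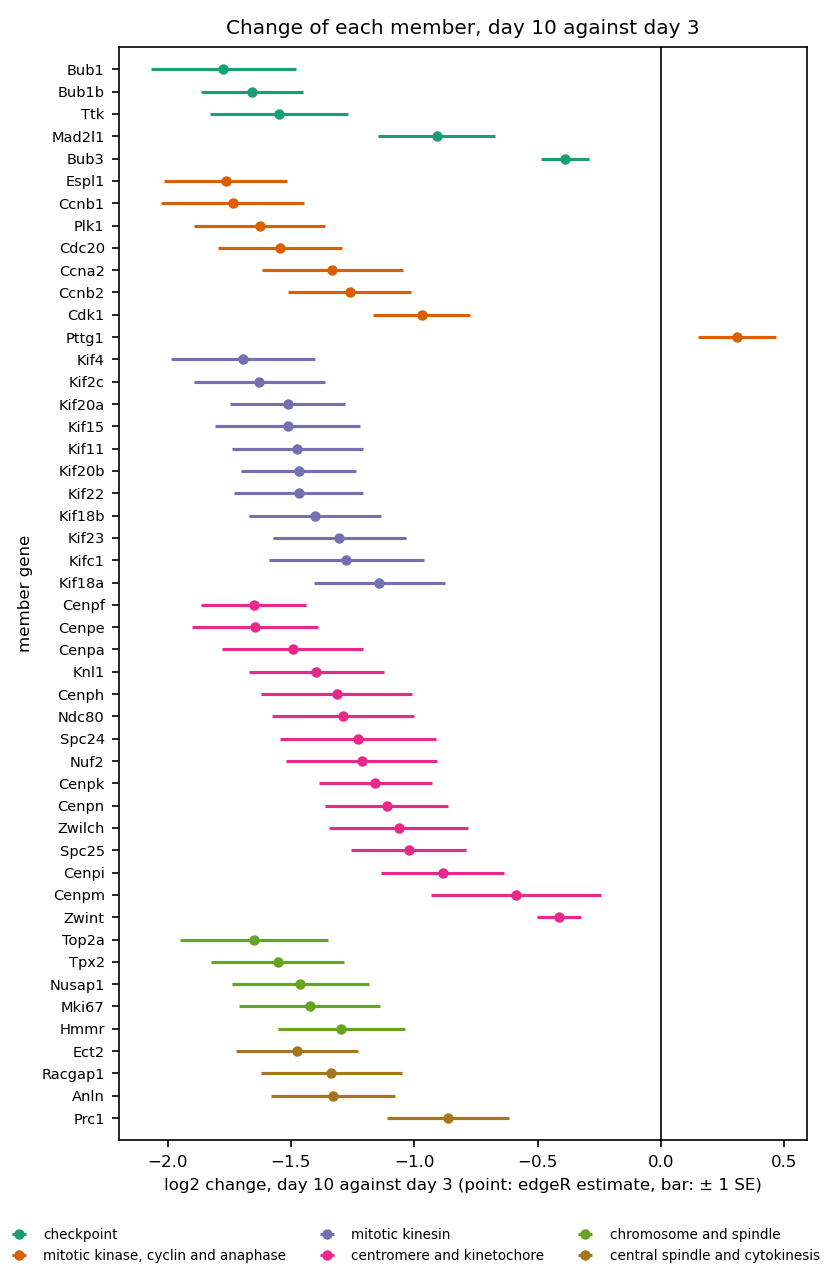
Log2 change of day 10 against day 3 for each of the 48 genes (x axis; points are edgeR estimates from 3 libraries a day, bars ± 1 SE), grouped and coloured by role class. All points but Pttg1 lie left of 0, and Bub3, Zwint and Cenpm lie nearest to 0 among them.

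The shorter intervals were compared in the same fit. From day 3 to day 7, 8 of 48 genes were called lower and 0 higher by edgeR, against 19.0% of all genes lower and 22.8% higher, so the share called was not above the background, while 46 of 48 log2 changes were negative with a median of -0.46. The genes called were Bub1b, Bub3, Cdc20, Ccnb1, Espl1, Kif20b, Cenpe and Cenpf. At an unadjusted p under 0.05, in either direction, the count was 16 of 48, where 7483 of all 14940 genes passed, and DESeq2 called 17 of 48 lower and 3113 of all genes. All 3 day 7 libraries lay below all 3 day 3 libraries in 39 genes, where 29.6% of all genes did so. Bub1b fell by 0.80 (edgeR adjusted p = 0.0112), and its call remained in every alternative run. The count itself depended on single libraries: it was 1 without any one of the 3 day 3 libraries or day 7 replicate 1, 2 without day 7 replicate 2 or 3, 5 without day 10 replicate 2 and 37 without day 10 replicate 3, which enters through the shared estimate of the spread.

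From day 7 to day 10, 9 genes were called lower and 0 higher by edgeR, where 4.10% of all genes were called lower and 4.41% higher, and 47 of 48 changes were negative with a median of -0.88. These were Bub1b, Espl1, Cdk1, Kif2c, Kif20a, Cenpf, Nusap1, Hmmr and Anln, and 3 of them, Bub1b, Espl1 and Cenpf, were called in both intervals. At an unadjusted p under 0.05, in either direction, the count was 45 of 48, where 3793 of all 14940 genes passed, and DESeq2 called 43 of 48 lower and 1046 of all genes. The day 10 libraries lay below all day 7 libraries in 43 genes, against 12.6% of all genes; the exceptions were Bub3, Pttg1, Cenph, Cenpk and Zwilch. Without day 10 replicate 3 the median shrank to -0.58 while 38 genes were called. The count was 25 without day 10 replicate 1, 5 without day 7 replicate 1, 0 without day 7 replicate 2 or 3, and 1, 2, 3 and 3 without day 3 replicates 1, 2 and 3 and day 10 replicate 2. The calls over all genes moved as well, from 612 lower to 160 without day 7 replicate 2, 344 without day 7 replicate 3, 358 without day 3 replicate 1 and 792 without day 10 replicate 3. Over all genes the calls of this interval split into 612 lower and 659 higher, and into 675 and 437 when only library size was scaled for.

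No gene of the set was called by the test of the later against the earlier interval. That test compares whole intervals of unequal length, days 7 to 10 against days 3 to 7, and not rates per day. Its standard errors ran from 0.151 in Zwint to 0.583 in Cenpm, so the absence of calls does not show equal changes. In edgeR 0 genes were called, against 8.03% of all genes in either direction, 0 reached an unadjusted p under 0.05 and DESeq2 called 0. The difference of the log2 changes had a median of -0.37 and was negative in 47 genes, but the median was -0.09 without day 10 replicate 3 and -0.19 without day 7 replicate 2. It was -0.575 without day 7 replicate 1 and -0.60 without day 10 replicate 1. A test of any difference among the 3 days called 46 of 48 genes, where it called 53.5% of all genes.

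The libraries of days 7 and 10 differed among themselves in these genes. Day 10 replicate 3 was the lowest library of its day in 47 of 48 genes, and day 7 replicate 1 in 45, while day 7 replicate 2 was the highest of its day in 41. Against the mean of the other 2 day 10 libraries, replicate 3 was lower by a median of 1.15 on the log2 scale in the set, from -1.65 in Cenpm to 0.10 in Pttg1, and only 1.96% of all genes were lower than that median. The DNA replication genes were lower there too, with a median of -0.70 and 20 of 20 below. Day 7 replicate 1 was lower than the other 2 day 7 libraries by a median of -0.40 in the set and -0.30 in the replication genes. The median coefficient of variation of the set was 3.75% on day 3, 16.6% on day 7 and 39.9% on day 10, where genes at 10 CPM or more had 4.81, 7.55 and 10.1%. By these medians the day 3 libraries were tighter for the set than for genes at 10 CPM or more, and those of days 7 and 10 wider. The set and the other genes were not matched for level.

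Relative to the median gene of the set in the same library, the shifts from day 3 to day 10 ran from -0.30 in Bub1 to 1.88 in Pttg1 on the log2 scale. Kif11 stood at 1.24 above it on day 3 and 1.25 on day 10 on the log2 scale, and Kif20a at 0.71 on both days. Those that sank most were Bub1, by 0.30, and Ccnb1 and Espl1, by 0.27 each. The genes that gained most were Pttg1 by 1.88, Bub3 by 1.18, Zwint by 1.16, Cenpm by 0.82, Prc1 by 0.64, Cenpi by 0.62, Mad2l1 by 0.60 and Cdk1 by 0.56. These shifts are between group means of 3 libraries and were not tested. Between day 10 libraries the SD was 0.72 in Pttg1, 0.64 in Zwint, 0.49 in Bub3, 0.30 in Cenpm and 0.03 in Kif11. The set was lowest in day 10 replicate 3, and that library enters the reference.

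Compared per length, as CPM per kb of exon, the day 3 levels were led by Top2a at 126.5, Mki67 at 78.0, Cdc20 at 62.85, Ccnb2 at 59.5 and Cenpa at 54.6. The lowest were Pttg1 at 5.74, Knl1 at 6.83, Kif18a at 7.38 and Mad2l1 at 8.33. Lengths join all annotated exons of a gene, and for Mad2l1 the 8.032 kb exceed its RefSeq span, chr6:66535221-66541107. The low rank of Mad2l1 rests on that length and is uncertain. Top2a and Mki67 were still first and second on day 10, at 40.3 and 29.1. Bub3 moved from rank 19 to 4, Zwint from 23 to 9, Cdk1 from 14 to 6, Prc1 from 16 to 8, Cenpm from 42 to 28 and Pttg1 from 48 to 33, while Bub1 went from 21 to 29, Kif4 from 31 to 39 and Bub1b from 9 to 17.

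Other genes of the same machinery were counted in the same way. Of 32 further spindle, centrosome and cytokinesis genes, 31 fell between days 3 and 10 and 0 rose, with a median of -1.30. Kif24 had the largest fall, 1.95, and Numa1, which anchors spindle poles to the cell cortex, was the one not called, at -0.19. Of 29 further kinetochore and centromere genes 24 fell and 1 rose, with a median of -1.02. Cenpb, which binds a repeat of centromeric DNA, was the one that rose, from 164 ± 1.27 to 243 ± 23.2 CPM (log2 change 0.57, edgeR adjusted p = 0.000306). All 5 genes of the passenger complex and Aurora list fell, with a median of -1.50. Aurka fell by 1.68, and Aurkb, the passenger kinase that corrects faulty attachments, went from 91.1, 86.9 and 92.2 CPM on day 3 through 59.8, 77.8 and 71.3 on day 7 to 40.8, 41.7 and 18.25 on day 10, without overlap and with a log2 change of -1.43 (SE 0.260, adjusted p = 0.00125, edgeR). Of 13 condensin and cohesin genes 12 fell, with a median of -0.68, Ncapg by 1.72, while the cohesin subunit Stag2 was not called at -0.19.

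The list of the anaphase-promoting complex, the ligase that Cdc20 activates, was mixed. Of 18 genes 8 fell (44.4%) and 2 rose (11.1%), where 27.2% of all genes tested were called lower and 29.5% higher. The median of the list was -0.07. Ube2c, its E2 enzyme, fell by 1.59 on the log2 scale, and the subunit genes Anapc11 and Anapc16 rose by 0.44 and 0.40. Of 8 mitotic entry kinases and phosphatases 7 fell, with a median of -1.0; Cdc25c fell by 1.77, and Cdc25b, another phosphatase that activates Cdk1, rose by 0.49 (edgeR adjusted p = 0.00748). All 20 DNA replication genes fell, with a median of -1.15, from -1.82 in Cdc6, the licensing factor, to -0.68 in Gins2, a helicase subunit. The 23 further kinesins listed as interphase kinesins, a name that does not exclude a part in mitosis, had a median of -0.13. Of these kinesins 11 were called lower (47.8%) and 6 higher (26.1%), the latter not above the 29.5% of all genes tested. Kif5c, a neuronal transport motor, fell by 4.14, and Kif1a, also known from neurons, rose by 1.83.

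**Figure D5:**
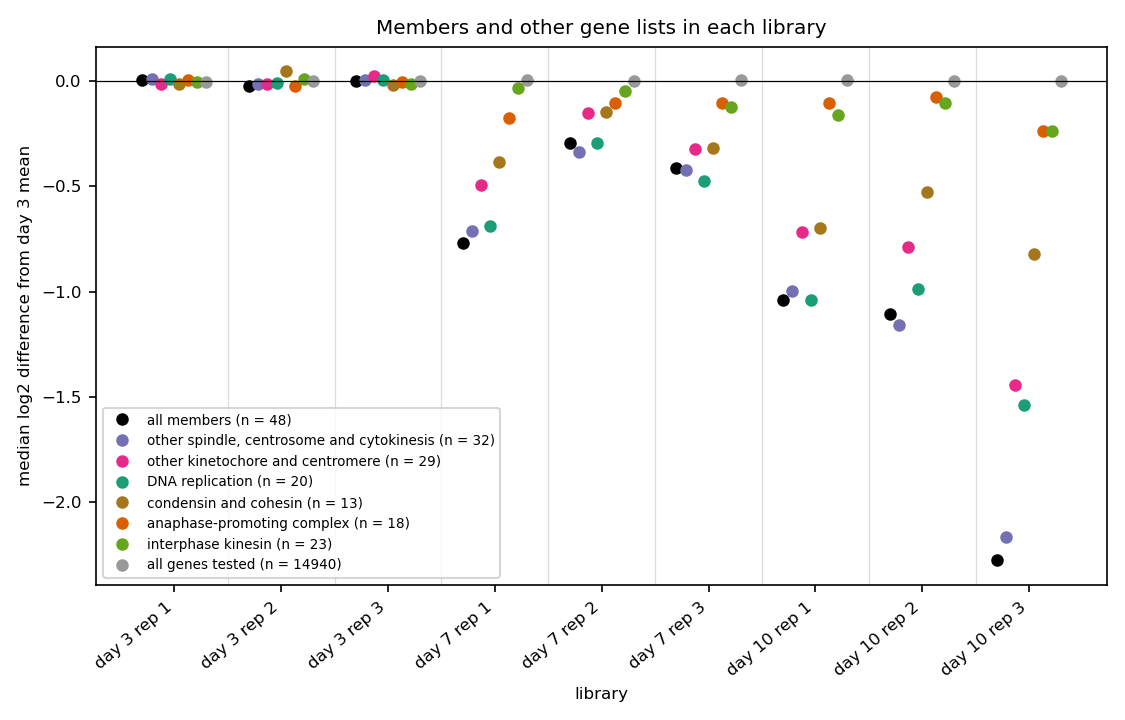
Median log2 difference from the day 3 mean (y axis) in each of the 9 libraries (x axis) for the 48 genes in black, 6 other lists and all 14940 genes tested in grey. The set lies at -1.04, -1.11 and -2.28 in the day 10 libraries, close to the other spindle genes, while the anaphase-promoting complex and the interphase kinesins stay between 0 and -0.24 in the libraries of days 7 and 10.

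The list of mitotic gene transcription was mixed as well, a name that does not exclude other targets of its E2F and RB family members. Of its 19 genes 11 fell (57.9%) and 3 rose (15.8%), with a median of -0.41. Of all genes tested 27.2% were called lower and 29.5% higher. E2f2 had the largest fall, 1.75 on the log2 scale. Mybl2, which encodes B-MYB, measured 20.6, 20.9 and 20.7 CPM on day 3, 12.9, 17.5 and 15.1 on day 7 and 8.88, 10.9 and 4.34 on day 10. Its days did not overlap, and it fell by 1.37 (SE 0.273, adjusted p = 0.00206, edgeR). Foxm1 had 139.4, 139.1 and 130.5 CPM on day 3, 96.35, 118 and 121 on day 7 and 75.1, 70.8 and 40.5 on day 10, again without overlap, and a log2 change of -1.14 (SE 0.200, edgeR adjusted p = 0.001). The 3 genes that rose were Rbl2, Rb1 and Lin52. Rbl2, which encodes the pocket protein p130 of the DREAM complex, had 38.35, 38.5 and 36.8 CPM on day 3, 49.1, 51.1 and 51.5 on day 7 and 44.2, 49.9 and 57.0 on day 10, with all later libraries above day 3, with a log2 change of 0.41 (adjusted p = 0.00335, edgeR). Rb1, the retinoblastoma protein gene, rose by 0.65 (adjusted p = 0.000275, edgeR) and Lin52, a MuvB subunit, by 0.36 (adjusted p = 0.0447, edgeR). These lists were chosen with results of these libraries known, so their counts are a description and not independent evidence of a direction.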

How the data were processed

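Messenger RNA was measured by sequencing poly(A)-selected libraries. The authors deposited raw counts per gene for all 9 libraries in 1 table keyed by Entrez gene identifier. Per the submitters' processing notes, featureCounts was used and the build was mm10. No aligner, annotation or strand setting is given in the sources read. Of 27179 identifiers 25275 were named from RefSeq and 18 from GENCODE. Gene coordinates come from RefSeq and exon lengths from GENCODE, on GRCm38.

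Groups were taken from the day in the labels. Counts were filtered with filterByExpr, scaled by TMM and fitted over all 9 libraries with edgeR 4.0.16 (R 4.3.3) quasi-likelihood tests, adjusted over 14940 genes and called at 0.05. CPM are TMM-normalised. Standard errors (SE) were derived from the F statistic, as log2 change over root F. The procedure was tested on simulated data.

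Members and lists were chosen with earlier results of these data known. Every library is given for the members with the most and least negative change of each class, for Mki67, Cdk1, Ccnb1 and Bub3, and for Cenpm, Foxm1, Mybl2, Rbl2 and Aurkb. Other lists are represented by their lowest and highest genes and those called against the majority; 1 such gene is not reported here. Alternatives were other scalings and filters, DESeq2 1.42.0, a replicate block and left-out libraries. No library was left out of the reported values.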

Additional observations from a re-analysis of the deposited data

How the results depend on the processing

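The fall from day 3 to day 10 did not depend on these choices: 46 genes were lower in every alternative, with medians from -1.58 to -1.05, and the single change of a call was Pttg1, counted as 1 gene higher without day 7 replicate 2. The interval counts did depend on them. For day 7 against day 3 (8 lower) the count was 2 without a filter on low counts, 36 when only the 2 days compared were fitted, 17 by DESeq2, 29 with day 3 replicate 2 and day 10 replicate 3 both left out, and 1 to 37 when 1 library was left out. For day 10 against day 7 (9 lower) the corresponding counts were 1, 0, 43, 31 and 0 to 38, with 4 when only library size was scaled for and 15 with a filter of 1 CPM in 3 libraries. Over all genes, the same interval gave 113 lower and 177 higher when only the 2 days were fitted, 1046 and 1069 by DESeq2, against 612 and 659; the test of the later against the earlier interval gave 519 higher by DESeq2 against 308. The cause was not tested.

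With the replicate number as a block, 5 and 3 genes were called in the earlier and later interval. The labels do not say what a number shares. Same-numbered libraries had correlations of their deviations from -0.07 to 0.43, and differently numbered ones from -0.36 to 0.22. Not all same-numbered values were above 0.1, so the numbers were not treated as pairs. The ranges overlap and do not settle whether the numbers mark pairs, and the blocked counts are no sign of a weaker effect.

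Signs turned only in small, uncalled changes. They turned only with libraries left out, and the ranges given here span all 18 alternative settings. In day 7 against day 3 the log2 change ran from -0.125 to 0.091 in Cenpi, also above 0 without day 3 replicate 1 (0.026). It ran from -0.191 to 0.068 in Prc1 and from -0.042 to 0.126 in Cenpm. In day 10 against day 7 the ranges were -0.009 to 0.26 in Pttg1 and -0.171 to 0.003 in Bub3. Bub3 was above 0 without day 10 replicate 3, and at 0.003 with day 3 replicate 2 left out too. The share of promoters with a CHR match was 72.92% in a window 200 bases upstream as well. The median coefficient of variation of 39.9% on day 10 limits the comparison of that day with the others; differences between genes were not tested.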
